A study of Drosophila melanogaster with 2 samples.

Results

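The unconventional myosin gene dachs and 9 further genes of the Fat-Hippo pathway (ft, ds, fj, app, ex, Mer, hpo, wts and yki) were examined for binding of CG31365 in Drosophila melanogaster embryos. These 10 of 13945 protein-coding genes were selected on earlier results of the same data, in which dachs carried one of the highest peaks, and on membership of the pathway. The height of the dachs peak is therefore given as a description, without a test. For each gene, every peak with its summit in the gene body or within 1000 bp of a transcript start site (TSS) was taken, with its deposited signal value and its rank within its list.

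Binding was mapped by chromatin immunoprecipitation and sequencing (ChIP-seq) in whole embryos of a transgenic line that stably expresses CG31365 with GFP at its C terminus. Embryos of mixed sex were collected over 0 to 24 h of development, so a peak averages over all cell types and stages of that period. There was 1 group with 2 biological replicates, which carry the numbers 2 and 3, and no other group was analysed here. A free-text label calls each library an input control, whereas the assay and antibody labels describe ChIP libraries and the submitters' file listing shows peaks called on them against a separate control file. The lists used were 4: a list of 30000 regions, background included, from each replicate, another of 30000 from the pooled reads, and a thresholded list. The thresholded list holds the 2821 peaks that were kept by their irreproducible discovery rate (IDR peaks). Not every IDR peak had a partner in both replicate lists. The signal value is the peak caller's own and its scale is not stated, so values are compared within a list. The exception is the ratio of replicate 2 to replicate 3, which includes any difference in scale between the 2 lists. It is therefore read only against the same ratio at other IDR peaks. Read depth is unknown. With 1 group there is no comparison between conditions and no p-value.

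In flies, Fat and Dachsous are giant cadherins that bind each other on neighbouring cells, and their signal restrains growth and sets planar polarity. Dachs acts downstream of Fat: it gathers on one side of the cell and antagonises the kinase Warts. Warts is activated by Hippo and holds the coactivator Yorkie out of the nucleus, where Yorkie would work with Scalloped to switch on growth genes.

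The dachs peak (chr2L:8477775-8478646, dm6) was the 8th highest of the pooled and IDR lists, with a signal value of 7019. It carried 5 copies of AAGCAGT, a 7-base word taken from earlier work on these same data, which lies under the highest CG31365 peaks. The 201 bases centred on its summit are shown because they hold all 5 copies, which stand in capitals on either strand (chr2L:8478058-8478258, plus strand, from the RefSeq copy of the assembly).
dachs peak: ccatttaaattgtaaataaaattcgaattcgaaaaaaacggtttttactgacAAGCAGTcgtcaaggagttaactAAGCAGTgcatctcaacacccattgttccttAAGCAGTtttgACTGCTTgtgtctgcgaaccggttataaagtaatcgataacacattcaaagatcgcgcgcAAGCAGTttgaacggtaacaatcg

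The same 5 copies are set out below each other in the orientation of the word, which stands in capitals, with 7 bases on each side. Copy 4 is read from the minus strand and the others from the plus strand, which is the strand of dachs.
dachs copy 1: tactgacAAGCAGTcgtcaag
dachs copy 2: gttaactAAGCAGTgcatctc
dachs copy 3: gttccttAAGCAGTtttgact
dachs copy 4: cagacacAAGCAGTcaaaact
dachs copy 5: cgcgcgcAAGCAGTttgaacg

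The centres of these copies lay from 9 bp (copy 3) to 80 bp (copy 5) from the summit. Only 2 of the 2821 IDR peaks held 5 copies within 100 bp of the summit, those of ranks 8 and 16, and no IDR peak held more. By comparison, 13.2% of all IDR peaks held at least 1 copy (373 of 2821). Neighbouring copies started 23, 31, 11 and 60 bp apart. Copies 3 and 4 face each other, so that the word is followed by 4 other bases and then by its reverse complement. This arrangement occurred 6 times on the 6 chromosome arms searched, and 4 of the 6 lay within 100 bp of IDR summits, at ranks 5, 8, 32 and 117. It was singled out because it was seen at dachs, which is 1 of the 4. Of all pairs with starts at most 60 bp apart, 33.7% in this orientation lay as near to an IDR summit, against 56.6% in the opposite orientation and 60.9% on the same strand.

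In earlier work on these data the word was often preceded by G and C and followed by G and C. Of these 4 flanking positions, copies 2 and 5 matched 2, copies 1 and 4 matched 1, and copy 3, the nearest to the summit, matched 0. Among the 50 highest IDR peaks, all of which held the word, 12 had a copy that matched all 4 positions and 20 had a best copy that matched 3. The dachs peak was 1 of 14 in that group whose best copy matched 2. Because the word and its flanks were taken from these same data, their presence at the highest peaks, dachs included, is a description and not independent evidence.

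The summit of the dachs peak fell between the alternative starts of the gene. Dachs has 2 annotated transcripts, and the summit (2L, 8478158) lay 547 bp upstream of the start of the shorter one and in intron 3 of the longer one, 11341 bp from its start. CheA29a, a gene nested in the same intron on the same strand, ended 70 bp before the summit and started 809 bp from it. The nearest start site was thus that of the short dachs transcript. Peak calls alone do not say which of these genes, if any, the site acts on.

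In replicate 2 the dachs peak had a signal value of 4472 and rank 6, and in replicate 3 a signal value of 2568 and rank 11. The summits of the replicates lay 4 bp and 20 bp downstream of the pooled summit. With shifts this small, the windows around them took in the same copies of the word, so that count adds no evidence. The peak was high in both lists, 29.5 times the next highest signal value among the IDR peaks of the 10 genes in replicate 2 and 18.6 times in replicate 3. In the pooled list it was 25.4 times the next highest, at Mer, and 37.0 times the median IDR peak. The log2 ratio of replicate 2 to replicate 3 was 0.80 at dachs. The 50 highest IDR peaks had a median log2 ratio of 0.78, with a range of 0.10 to 1.17, so dachs stood near their middle.

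**Figure D1:**
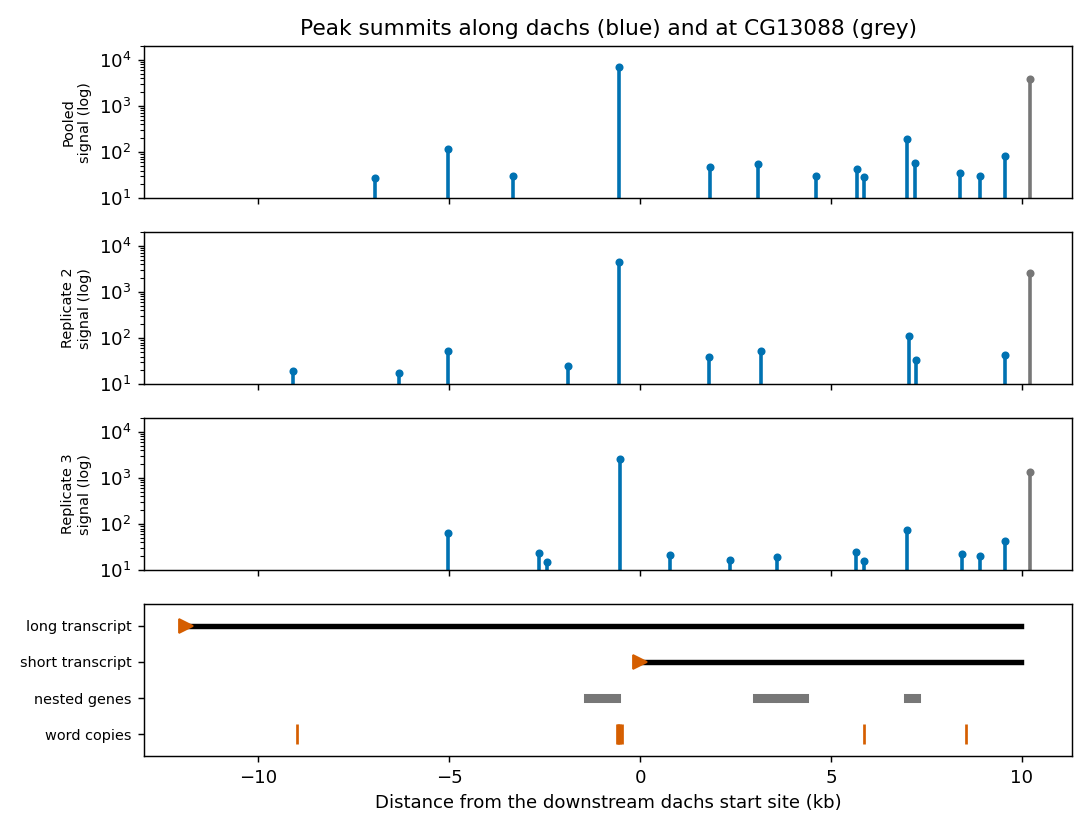
Peak summits along dachs in the pooled list and in each replicate (blue; signal value on a log scale), with the nearest peak beyond the 3′ end, at CG13088, in grey. The lower panel shows the 2 transcripts with their starts as arrowheads, the genes nested in dachs and the copies of AAGCAGT, against distance from the downstream dachs start site in kb. The highest summit, 7019 in the pooled list, stands 547 bp upstream of the downstream start, over the cluster of 5 copies.

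The rest of the dachs gene carried much lower peaks. A second IDR peak (chr2L:8485509-8485892, signal value 191.6, rank 1385) had 2.73% of the signal value of the first and held no copy of the word. It lay in an intron of both transcripts, 24 bp upstream of the start of the nested noncoding RNA gene lncRNA:CR43604. Its signal value was 113.6 in replicate 2 (rank 1217) and 75.8 in replicate 3 (rank 1925). The peak next in signal, in an intron of the long transcript, missed the IDR list at pooled rank 3089 with a signal value of 118.0. The remaining pooled peaks of the 14 in the gene had signal values of 28.0 to 80.7.

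Copies of the word outside the high peak lay at low-ranked summits or at none. Besides the 5 copies, the dachs region held 3 more. The copy in an intron at 8484578 to 8484584 lay 3 bp from a pooled summit of rank 27956, a call near the end of the list. The copy in a coding exon at 8487246 to 8487252 had no summit within 100 bp in any list. The third, at 8469710 to 8469716, had a summit within 100 bp in replicate 2 alone, at rank 24416.

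Just beyond dachs stood another high peak. Its summit lay 256 bp past the annotated 3′ end of dachs and 54 bp upstream of the start of CG13088, so it did not enter the set of dachs peaks. It had a pooled signal value of 3837 (rank 31), with 2521 in replicate 2 (rank 29) and 1342 in replicate 3 (rank 42). Of the IDR summits in dachs or within 10000 bp of it, those at ranks 8 and 31 held the word. The second dachs peak and a peak near the Agpat2 start (signal value 196.0, rank 1341) did not. The CG13088 peak held 1 copy, 2 bp from its summit, shown here in capitals for comparison with the cluster at dachs (chr2L:8488877-8488977, plus strand).
CG13088 peak: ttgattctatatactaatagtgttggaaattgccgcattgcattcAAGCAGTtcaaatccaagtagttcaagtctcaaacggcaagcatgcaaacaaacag

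The IDR peaks nearest to dachs in rank had signal values close to its own, and the log2 pooled signal of dachs minus that of each is given. By nearest start site the 3 just above it were at Rtnl1 (7748, log2 difference -0.14), lncRNA:CR43252, within Antp and CG46458 (7722, log2 difference -0.14), and T48 (7280, log2 difference -0.05). The 3 just below it were at Jhbp1 (6803, log2 difference 0.04), tRNA:iMet-CAT-1-5 (6780, log2 difference 0.05) and CG14762 (6582, log2 difference 0.09). Some of these start sites were distant: 5403 bp for Jhbp1, 3583 bp for lncRNA:CR43252 and 1124 bp for Rtnl1. The summit nearest to Jhbp1 lay in no annotated gene body, and the one nearest to tRNA:iMet-CAT-1-5 lay within the gene ome. These 6 peaks held 1 to 4 copies of the word. Dachs ranked 6 in replicate 2 and 11 in replicate 3. Rtnl1 (ranks 5 and 8) and the lncRNA:CR43252 peak (4 and 10) stood above it in both replicates, and CG14762 (11 and 12) stood below it in both. T48 (10 and 6), Jhbp1 (17 and 5) and tRNA:iMet-CAT-1-5 (13 and 7) stood below dachs in replicate 2 and above it in replicate 3, so their order relative to dachs was not the same in both lists.

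IDR peaks were found at 7 of the 10 genes (dachs, ds, app, wts, hpo, ex and Mer), 9 peaks in all, and at none of ft, fj and yki. The same rule took in 16.8% of all protein-coding genes. Several of the 10 genes are long (median 17.2 kb, against 2.17 kb for all protein-coding genes), whereas fj, hpo, yki and Mer are 2.51 to 3.8 kb. Of the 1200 protein-coding genes of at least 17.2 kb, 46.5% had an IDR peak. That share is not matched in length to the shorter of the 10. Within 1000 bp of a start site there was an IDR peak at 6 of the 10, against 13.9% of all protein-coding genes. Because dachs was chosen for its peak, these counts are read without it as 6 of 9 and 5 of 9. All 10 genes had at least 1 of the 73 pooled peaks, where 58.9% of protein-coding genes had one. Low-ranked entries of that list include background.

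**Figure D2:**
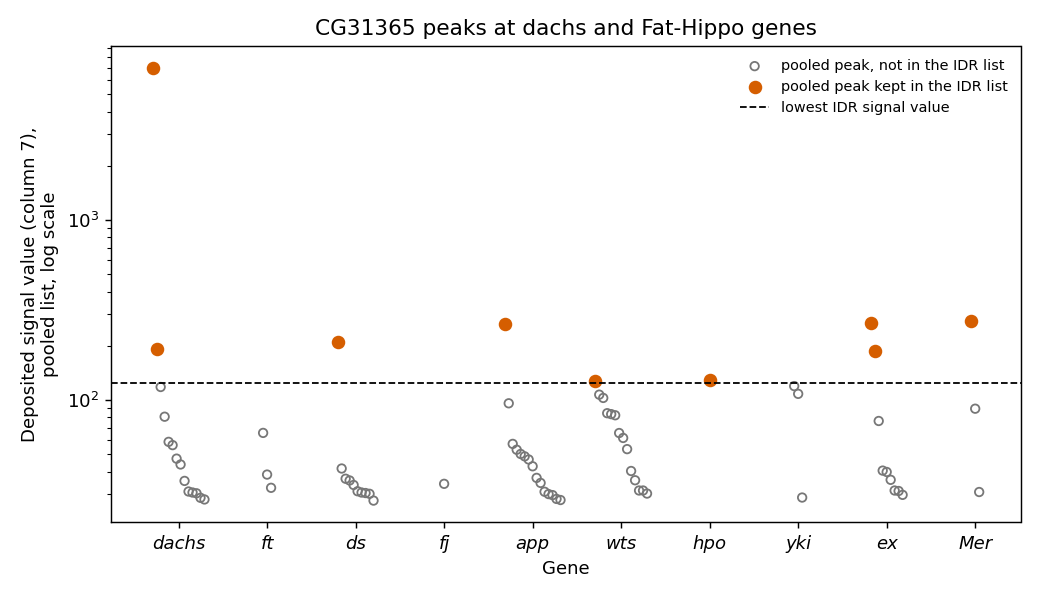
Deposited signal value (log scale) of each pooled peak at the 10 genes. Filled points are in the IDR list, open points are not, and the dashed line is the lowest IDR signal value, 124.1. The first dachs peak stands at 7019 and the other 8 IDR peaks lie between 127.5 and 275.8.

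Apart from the first dachs peak, the 8 IDR peaks had a median signal value of 201.2 and ranks from 790 to 2696, where the median of the whole IDR list was 189.6. All 9 peaks had a partner summit, at most 100 bp away, in both replicate lists, as did 2711 of all 2821 IDR peaks. For 7 of the 9 the match was among the 2821 highest peaks of each replicate. The share of all IDR peaks that meet this stricter rule was not computed. All 9 had a log2 ratio of replicate 2 to replicate 3 between the 5th and 95th percentile of the 2711 IDR peaks matched in both replicate lists (-0.60 to 1.09, median 0.24). Over all ranks, 52.8% of the 53 replicate 2 peaks at the 10 genes had a partner in replicate 3, and 39.4% of the 71 replicate 3 peaks had one in replicate 2. For each whole list the share was 38.5%.

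**Figure D3:**
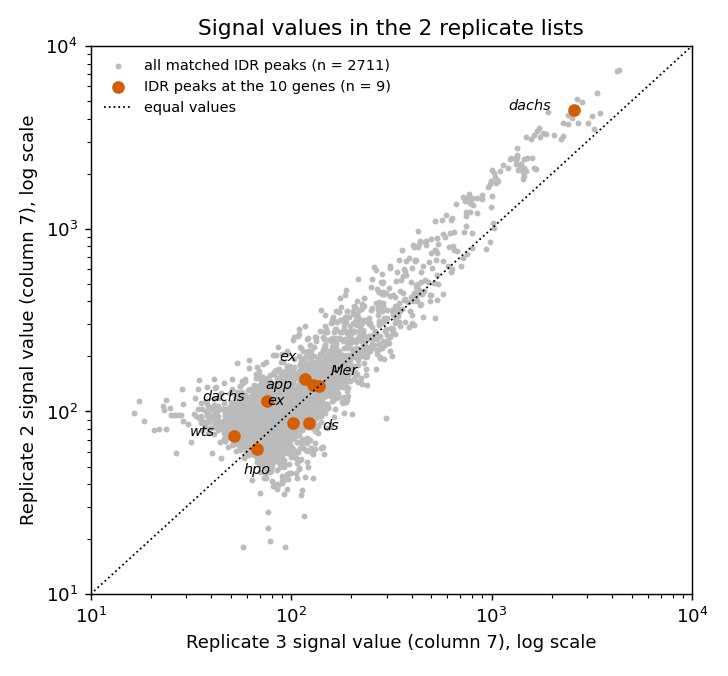
Signal value in replicate 2 against replicate 3, both on log scales, for all 2711 IDR peaks matched in both lists (grey) and the 9 at the 10 genes (orange). The dotted line marks equal values. The first dachs peak lies at 4472 and 2568 among the highest peaks, and the other 8 lie in the dense part of the cloud.

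The cadherins differed in their peaks. At ds, which encodes the ligand Dachsous, an IDR peak (chr2L:715339-715722, signal value 210.9, rank 1202) lay 548 bp upstream of the start site. It had a signal value of 86.6 in replicate 2 (rank 1911) and 123.4 in replicate 3 (rank 872). The other 9 pooled peaks of this 75.0 kb gene were at ranks 15768 and below. At ft, which encodes the receptor Fat, no peak came near the IDR list. Its highest pooled peak lay in intron 1 (signal value 65.6, rank 7847), with a signal value of 47.3 in replicate 2 (rank 5507) and 15.7 in replicate 3 (rank 28022).

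Of the enzymes that modify this branch, app had an IDR peak at its start and fj had none. The gene app encodes a palmitoyltransferase needed to place Dachs at the membrane. Its IDR peak (chr3L:12266818-12267201, signal value 262.9, rank 842) lay 169 bp upstream of the first of its 4 start sites, and the divergent gene CG32100 started 518 bp from the summit. The replicates gave signal values of 139.7 (rank 879) and 128.0 (rank 818). The gene fj encodes a Golgi kinase that phosphorylates the cadherin domains of Fat and Dachsous. Its single pooled peak, in the 5′ UTR 29 bp downstream of the start site, had a signal value of 34.2 (rank 21290), below the median of the pooled list (42.9). A replicate 2 peak of 21.7 (rank 20313) matched it. Replicate 3 had peaks of 20.1, 19.3 and 17.6 at fj, none of them within 100 bp of the pooled summit.

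Both FERM-domain genes upstream of Hippo had IDR peaks at their starts. At ex, also a target of Yorkie in a negative feedback, the peak (chr2L:430976-431110, signal value 268.5, rank 815) lay 176 bp upstream of the start site. Its values were 151.4 in replicate 2 (rank 769) and 116.9 in replicate 3 (rank 951). A second IDR peak lay in intron 3 of ex (chr2L:441905-442288, signal value 187.7, rank 1442), with 86.6 in replicate 2 and 101.7 in replicate 3. At Mer, the fly gene of the NF2 tumour suppressor, the peak (chrX:19693185-19693568, signal value 275.8, rank 790) lay 123 bp downstream of the start in intron 1. The replicates gave 138.6 (rank 893) and 138.4 (rank 719). The start-site peaks of Mer, ex and app, at pooled ranks 790, 815 and 842, came in the order ex, app, Mer in replicate 2 and Mer, app, ex in replicate 3. Their signal values do not differ beyond that spread.

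No copy of AAGCAGT was found near the summits of these start-site peaks, and 101 bases around 4 of them are shown for contrast with dachs. They run on the plus strand from chrX:19693327-19693427 (Mer), chr2L:431001-431101 (ex), chr3L:12266960-12267060 (app) and chr2L:715481-715581 (ds). They hold neither the word nor ATCGAT, the core of the DNA replication-related element (DRE), so no base is in capitals.
Mer peak: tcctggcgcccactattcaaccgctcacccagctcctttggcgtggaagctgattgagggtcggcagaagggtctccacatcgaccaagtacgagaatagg
ex peak: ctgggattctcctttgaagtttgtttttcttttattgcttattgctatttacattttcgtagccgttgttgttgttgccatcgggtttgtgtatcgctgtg
app peak: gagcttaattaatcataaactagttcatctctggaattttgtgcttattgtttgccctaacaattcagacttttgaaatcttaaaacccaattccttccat
ds peak: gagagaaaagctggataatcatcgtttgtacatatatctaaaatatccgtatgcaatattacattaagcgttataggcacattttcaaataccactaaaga

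The core kinases had IDR peaks at the low end of the list. At hpo, the Ste20-family kinase, the single peak in each list lay at the start site (2R, 19496734 to 19497117, 70 bp upstream, signal value 129.6, rank 2616). It had 62.7 in replicate 2 (rank 3377) and 68.0 in replicate 3 (rank 2330). At wts, the kinase that phosphorylates Yorkie, the IDR peak lay in intron 2 (3R, 30796711 to 30797094, signal value 127.5, rank 2696), 9716 bp from the start site. It had 73.8 in replicate 2 (rank 2522) and 51.7 in replicate 3 (rank 3790). Each of these peaks thus lay outside the 2821 highest of one replicate, and neither is in a stricter set of the highest IDR peaks.

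The replicates disagreed at a further wts peak. This peak, in an intron 632 bp downstream of the start site, had a signal value of 89.5 in replicate 3 (rank 1452) and 17.4 in replicate 2 (rank 28814), where both summits lay within 100 bp of the pooled one but not of each other. In the pooled list it stood at 102.6 (rank 3916), outside the IDR list. Altogether 14 pooled peaks with a median signal value of 63.5 lay at wts. The median of the whole pooled list was 42.9.

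At yki, the coactivator gene at the end of the cascade, 2 peaks stood just outside the IDR list. They had pooled signal values of 119.4 (rank 3039) and 108.1 (rank 3581), 311 and 512 bp upstream of the yki start. The start of the divergent gene Gpat4 was nearer, at 39 and 53 bp. Replicate 2 had 1 peak there, with a signal value of 80.0 and rank 2199, and replicate 3 had 2, with 56.5 (rank 3236) and 46.1 (rank 4595). At the edge of the IDR list, the peaks of hpo and wts were thus just inside and those of yki, and the dachs peak at rank 3089, just outside. The nearest values on either side of that edge were 127.5 at wts and 119.4 at yki.

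Of the 9 IDR peaks, 1 (the first dachs peak) held AAGCAGT. All 8 others ranked after 700, where 6.41% of IDR peaks (136 of 2122) held the word. The regions of the 9 genes other than dachs held 30 copies in all, 14 of them at ds and 8 at app. None of the 30 lay within 100 bp of an IDR summit, and 1, in an intron of app, lay within 100 bp of a pooled summit (rank 26159). Over the 6 chromosome arms 3.45% of 17376 copies were within 100 bp of an IDR summit and 8.09% within 100 bp of a pooled one. The differences from 0 of 30 and 1 of 30 were not tested. At ds 2 copies and at app 2 copies matched 3 of the 4 flanking positions, more than any copy at dachs, and had no pooled summit within 100 bp.

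**Figure D4:**
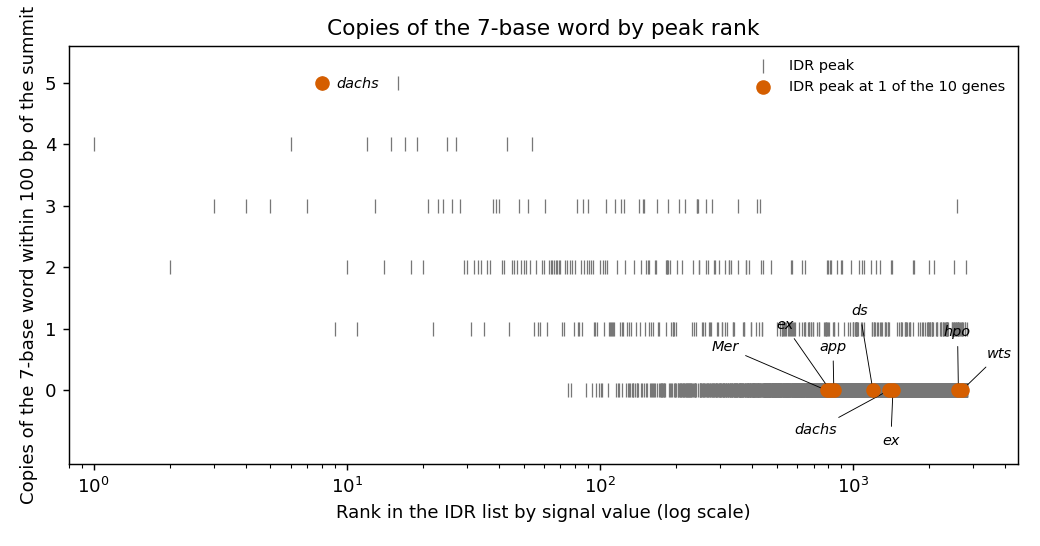
Number of copies of AAGCAGT within 100 bp of the summit against rank in the IDR list (log scale), with a tick for each of the 2821 IDR peaks and an orange point for each of the 9 at the 10 genes. The first dachs peak, at rank 8, stands at 5 copies, and the other 8 stand at 0.

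Further short elements were searched for on both strands within 100 bp of the summit. ATCGAT was at the first dachs peak and the hpo peak, 2 of 9, against 8.26% of all IDR peaks and 6.82% of low-ranked peaks (pooled peaks that overlap no IDR peak). GAGAG, a binding sequence of GAGA factor, was at 4 of 9 (app, ds and both ex peaks), against 29.4% and 26.8%. GGAATG, the core site of the Scalloped family through which Yorkie acts, was at 0 of 9, against 6.17% and 9.29%. These are counts of letters in a window and do not show that a factor binds there.

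Further genes of the pathway were described from 5 lists chosen with earlier results known. Of 55 genes, 22 (40.0%) had an IDR peak by the same rule, 13 of them within 1000 bp of a start site. Gene length went with this count: the median length was 34.6 kb for the 22 and 4.78 kb for the other 33. The 22 of 55 can be read against the 16.8% of all protein-coding genes given above. For the 13 of 55 counted by start site alone, the matching figure is 13.9%, also given above. Neither share takes gene length into account. The 46.5% given above is for genes of at least 17.2 kb. The median length of the 55 genes was 10.1 kb, so that share is not matched to them in length. Of the regulators of the Hippo kinases 7 of 16 had an IDR peak, and of Yorkie's nuclear partners 4 of 10. Of the genes listed as its targets 7 of 14 had one, of the core planar polarity genes 2 of 6, and of further genes listed under the Fat branch 2 of 9.

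Among the further genes listed under the Fat branch, dco encodes the casein kinase that phosphorylates Fat. It had a peak in an intron with a signal value of 195.7 (101.4 in replicate 2 and 91.6 in replicate 3). The other listed gene with an IDR peak was sds22, which encodes a regulatory subunit of a protein phosphatase. Its peak had 307.2 (161.1 and 143.2) and lay 109 bp upstream of its start site, with 1 copy of the word. Of the regulators of the kinases, msn, a Ste20-family kinase gene, had the highest value at 368.5 (214.6 and 154.5). The apical polarity genes sdt and crb had 219.7 and 133.7, and the kinase gene Sik3 had 197.8. The scaffold gene kibra had 126.4 in the pooled list and 67.4 in replicate 3, and no peak matched it in replicate 2. None of the 7 held the word.

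The 2 highest values in the lists were at InR and wg, both listed as Yorkie targets in flies. Of the 14 listed targets 7 had an IDR peak and the rest had none. The lists were chosen with earlier results known, so the height of these peaks is a description and not evidence about Yorkie targets. InR, the insulin receptor gene, carried the highest IDR peak of all, 11639 in the pooled list, 7373 in replicate 2 and 4304 in replicate 3, with 4 copies of the word. The peak at wg, which encodes the Wnt ligand Wingless, lay in the 3′ UTR at 1222 (818.1 and 408.1) with 3 copies. The glypican gene dlp had 336.1 with 1 copy, and Diap1, an inhibitor of cell death, had 286.2 with none. Of the nuclear partners, Trl, the gene of GAGA factor, had 812.4 (382.0 and 439.0), and Mad, a Smad transcription factor gene, had 322.4. Of the planar polarity genes, the receptor gene fz had 378.5 (161.0 and 213.5) and the cadherin gene stan had 133.4. Altogether 6 of the 55 genes had the word at an IDR peak. The share of all protein-coding genes with the word at an IDR peak was not computed, so this count is a description only.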

How the data were processed

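ChIP-seq peak lists of 1 group with 2 biological replicates were used, on dm6 per the labels. Each deposited list gives a signal value (column 7), a −log10 q-value (column 9) and a summit offset from the peak start (column 10). The signal values are the authors' peak scores, and their scale, the aligner, the peak caller, the IDR threshold and the read depth are not given in the sources used here. Per the file names in the submitters' listing, the replicate and pooled lists hold peaks and background as input for IDR, and the IDR list is the thresholded set.

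Each list was ranked by signal value. Genes and start sites came from Ensembl release 115 (BDGP6.54), without transposable elements and pseudogenes. Summits in a gene body or within 1000 bp of a start site were assigned to the gene, and replicate summits within 100 bp were matched. Words were searched within 100 bp of the summit on both strands of the RefSeq copy of the assembly. Genes named are the 10, with their IDR peaks and highest pooled peak, the gene nearest to each of the 3 IDR peaks on either side of dachs in signal value, and genes of the pathway lists with an IDR peak. Further peaks and CG13088 were named after their values were seen. The genes and lists were chosen with earlier results of these data known. Python 3.11.15, numpy 2.4.6, pandas 2.3.3 and matplotlib 3.10.9 were used. The word search and the check of distance to a summit were run on simulated sequences and positions with known answers. The other steps were not checked in this way. Alternatives were other start-site windows, the gene body alone, peak overlap, a stricter list, ranking by column 9 and each replicate alone. The share of all genes under each alternative was added after seeing the data. No test was made, since there is 1 group.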

Additional observations from a re-analysis of the deposited data

How the results depend on the processing

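The rank of the dachs peak was 6 to 11 when either replicate was left out. Its count of 5 copies of the word was the same at both replicate summits. These lay only 4 bp and 20 bp from the pooled summit, so the count could not have changed. Leaving out a replicate gave 7 genes with a peak in both cases, 9 to 10 peaks, 6 to 7 genes with a peak at a start site, and a share of all protein-coding genes of 16.9% to 17.2%. That share under the other alternatives was chosen after seeing the data and is given beside each count. Counting the gene body alone left 4 genes and 5 peaks (9.22% of all protein-coding genes): ds, app and hpo lost their peak and ex kept 1. A start-site window of 500 bp left 6 genes and 8 peaks (15.2%), with 4 genes at a start site in place of 6, and ds lost its peak. A window of 2000 bp gave 7 genes and 10 peaks (19.5%), with 2 peaks at wts. The stricter set of the highest IDR peaks left 5 genes and 6 peaks (9.34%): wts and hpo lost their peak and ex kept 1. Ranking by column 9 gave 8 genes and 11 peaks (18.7%), yki included. Column 9 is tied at its highest value for 3260 pooled peaks, so it gave dachs rank 1 together with all of those. Without replicate 3, hpo lost its peak and yki gained 1. These are the 12 of 80 values for single genes that moved. No paired analysis was possible because there was 1 group. Read depth is unknown, so no counting error can be given.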

Other observations

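Pairs of AAGCAGT copies whose starts lie at most 60 bp apart were counted by orientation and by whether an IDR summit was at most 100 bp away. The arrangement of copies 3 and 4 at dachs, a plus-strand copy followed by a minus-strand one, occurred as 95 pairs, of which 32 were near a summit. The opposite arrangement occurred as 76 pairs, of which 43 were near one, and copies on the same strand as 289 pairs, of which 176 were. Pairs in clusters share copies, and the difference was not tested. Over the 6 chromosome arms 8.09% of single copies lay within 100 bp of a pooled summit.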
